A study of Mus musculus with 9 samples.

Results

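The genes described here are the insulin-like growth factor (IGF) ligands Igf1 and Igf2, the receptors Igf1r and Igf2r, and the binding proteins Igfbp2, Igfbp3, Igfbp4, Igfbp5, Igfbp6 and Igfbp7. They were chosen by gene symbol, and they are 10 of the 41761 genes in the deposited table. RNA was sequenced from primary stromal cells of inguinal white fat of wild type C57 mice, taken through differentiation towards white adipocytes. Sodium alginate, a salt of a brown algal polysaccharide, was in the medium at 0, 50 or 100 µM throughout, with 3 libraries at each dose. All 3 doses shared DMEM/F-12 with fetal bovine serum and an induction mix of insulin, dexamethasone, IBMX and rosiglitazone, followed by insulin and rosiglitazone; the series' design text leaves rosiglitazone out. For the 100 µM group the dose came from the treatment labels and library names, since its titles read 50 µM. Collection was on day 7 by the protocol and on day 6 by the titles. Nothing in the labels ties the 3 libraries of a dose to separate cultures or animals, so each p-value measures the spread between libraries, which may be technical.

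IGF1 and IGF2 signal through IGF1R, a receptor tyrosine kinase close to the insulin receptor. IGF2R, also the cation-independent mannose-6-phosphate receptor, has no kinase; it removes IGF2 from the cell surface and carries lysosomal enzymes. The binding proteins hold the ligands outside the cell and control how much reaches the receptors, and proteases that cleave them release the ligand. IGFBP7 is a more distant relative that binds IGFs weakly. In fat, IGF1 acts on the growth and differentiation of preadipocytes, and insulin at high concentration, as in this medium, also binds IGF1R.

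At 100 µM alginate against 0 µM, transcripts of Igf1r, Igf2r and 4 binding proteins were lower, and Igf1 was the member that was higher. Igfbp3, Igfbp4, Igfbp6 and Igf1r fell to between 0.713 and 0.746 of their 0 µM means. Igf1 rose 1.24-fold. At 50 µM against 0 µM the binding protein Igfbp3 was the only member past the threshold, at 0.782 of its 0 µM mean. This 50 µM call held under 9 of 17.

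Levels are FPKM, that is fragments per kilobase of a gene, adjusted for library depth, so genes can be set against each other. Tests used limma on log2(FPKM + 1) with Benjamini-Hochberg adjustment, and a gene was called below an adjusted p of 0.05. The 12635 genes that reached 1 FPKM in 3 or more of the 9 libraries were tested. Differences are on that log2 scale, with the standard error (SE) of the fit, and understate changes of genes with low values. Of the 10 members, 9 were tested, and each of these was above 1 FPKM in all 9 libraries. Igf2 was under the filter. The tests of the members and the counts over all genes were recomputed under 17 alternatives. Among these were the values rescaled to a common sum (the TPM scale), quantile normalization and removal of a factor per library that the authors had applied. Others were voom (limma on rebuilt reads) and leaving out each library in turn. The other gene lists were recomputed only on the TPM scale, after quantile normalization, without the authors' factor and with voom. Reads rebuilt from the table numbered 14019672 to 17094467 per library. On the second principal component, which held 11.9% of the variance, 50 µM library 3 lay at -19.1 and the other 8 libraries between -4.62 and 11.4.

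Averaged over the libraries, the order of levels ran from Igfbp7 through Igfbp6, Igfbp3, Igfbp4 and Igf2r to Igf1r, with Igf1, Igfbp2, Igfbp5 and Igf2 lowest. Igfbp7 had a higher mean than 99.4% of the tested genes, Igfbp6 than 97.5%, Igfbp3 than 96.7% and Igfbp4 than 94.8%. Igf1r stood near the middle, above 55.4%, and Igf1 above 46.0%. At 0 µM the libraries of Igf1 (4.90 to 6.60 FPKM) and Igfbp2 (4.80 to 6.81 FPKM) overlapped, and at 50 µM they did again. At 100 µM the libraries of Igf1r (6.57 to 7.80 FPKM) and Igf1 (7.03 to 7.14 FPKM) overlapped, as did those of Igfbp2 (3.55 to 4.32 FPKM) and Igfbp5 (2.85 to 3.78 FPKM), so these neighbours could not be ordered. Igfbp1, which lies 3539 bases from Igfbp3 in the table's C57BL/6NJ strain assembly, was listed at 0 in every library. Coordinates of the genes below are on that strain assembly.

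**Figure D1:**
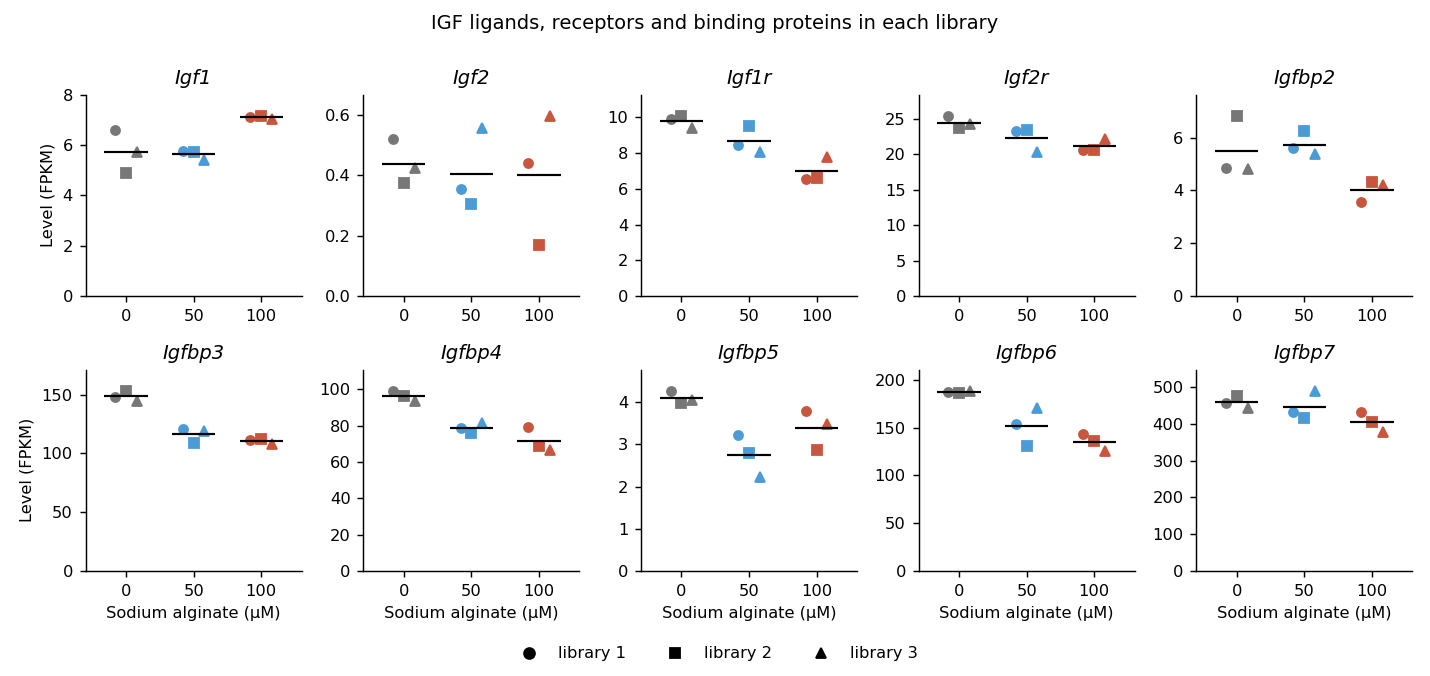
Level of each of the 10 genes (FPKM, linear axis from 0, a scale of its own in each panel) at 0, 50 and 100 µM sodium alginate. Points are the 3 libraries of a dose, with a shape for each library number, and black lines are the mean. The 100 µM libraries of Igfbp3 lie between 108 and 112 FPKM, below all 0 µM libraries at 144 to 153 FPKM, and those of Igf1 lie at 7.03 to 7.14 FPKM, above all 0 µM libraries.

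Igf1 encodes a secreted growth factor made by fat cells and their stroma as well as by the liver (MGP_C57BL6NJ_G0018019, chr10:91907890-91987972, plus strand). Its level was 7.12, 7.14 and 7.03 FPKM in the 100 µM libraries, against 6.60, 4.90 and 5.71 FPKM in the 0 µM libraries. The groups did not overlap, and the 0 µM libraries were the more spread. Igf1 averaged 7.10 ± 0.0605 FPKM at 100 µM and 5.73 ± 0.851 FPKM at 0 µM (SD, n = 3 each). The difference was 0.27 ± 0.0825 (SE), with a limma adjusted p of 0.0303. It was called under 8 of 17 alternative settings, with limma adjusted p between 0.00516 and 0.103. The call was lost without 0 µM library 2 (difference 0.18, limma adjusted p 0.0758), without 0 µM library 3 (0.0724) and without 100 µM library 1, 2 or 3 (0.0701, 0.0773 and 0.0653). Without the filter, on the TPM scale, without the authors' factor and with only the 2 doses fitted, the call was lost as well. At 50 µM the libraries held 5.74, 5.70 and 5.42 FPKM, inside the range of the 0 µM libraries, and the difference from 0 µM was -0.02 ± 0.0825 (limma adjusted p 0.957).

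Igf2, the growth factor of the fetus and an imprinted gene, was the lowest member (MGP_C57BL6NJ_G0033755, chr7:153262361-153282637, minus strand). It was listed at 0.518, 0.373 and 0.423 FPKM in the 0 µM libraries, at 0.353, 0.305 and 0.556 FPKM in the 50 µM libraries and at 0.440, 0.167 and 0.595 FPKM in the 100 µM libraries. These values came from 13 to 51 reads per library, and the 3 doses overlapped. Igf2 was left out of the reported fit by the filter on low values. In the fit without that filter, over 25286 genes, it differed by -0.05 ± 0.121 (SE) for 100 µM against 0 µM (95% interval -0.33 to 0.23; limma adjusted p 0.869) and by -0.04 for 50 µM against 0 µM (95% interval -0.32 to 0.24; limma adjusted p 0.968).

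Igf1r encodes the signalling receptor of both ligands (MGP_C57BL6NJ_G0032845, chr7:72184994-72467942, plus strand). Its level was 6.57, 6.59 and 7.80 FPKM at 100 µM, against 9.93, 10.1 and 9.39 FPKM at 0 µM. Every 100 µM library was below every 0 µM library. Igf1r averaged 6.99 ± 0.702 FPKM at 100 µM and 9.79 ± 0.358 FPKM at 0 µM (SD, n = 3 each). It fell by 0.44 ± 0.0765 (SE) on the log2 scale, with a limma adjusted p of 0.00213, and was called under all 17 alternatives. The 50 µM libraries, at 8.44, 9.54 and 8.08 FPKM, overlapped those at 0 µM, and the difference of -0.16 ± 0.0765 was not called (limma adjusted p 0.388).

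Igf2r encodes the clearance and sorting receptor (MGP_C57BL6NJ_G0023560, chr17:10736595-10827295, minus strand). Its level was 20.6, 20.6 and 22.1 FPKM at 100 µM, against 25.4, 23.7 and 24.2 FPKM at 0 µM, without overlap. Means were 21.1 ± 0.874 FPKM at 100 µM and 24.4 ± 0.834 FPKM at 0 µM (SD, n = 3 each), a fall of 0.20 ± 0.0613 (SE) on the log2 scale with a limma adjusted p of 0.0294. The call held under 11 of 17 alternatives. Among the losses were the fit without the filter and those without 0 µM library 1 or 3 (limma adjusted p 0.0944 and 0.0670). Losses also came without 100 µM library 1 or 2 (0.0802 and 0.0885). The 50 µM libraries held 23.3, 23.4 and 20.3 FPKM, all below 0 µM, with a difference of -0.13 that was not called (limma adjusted p 0.387). An unnamed gene on the opposite strand of Igf2r reached at most 1.14 FPKM.

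The insulin receptor gene Insr, the close relative of Igf1r, went the other way. Insr averaged 31.0 ± 1.90 FPKM at 100 µM and 23.8 ± 0.469 FPKM at 0 µM (SD, n = 3 each), and rose by 0.37 ± 0.0682 (SE; limma adjusted p 0.00293). The ratio of Insr to Igf1r levels was 4.54, 4.57 and 4.26 at 100 µM, against 2.41, 2.31 and 2.58 at 0 µM. At 50 µM it was 3.06, 2.71 and 2.72, above every 0 µM library. On the log2 scale it differed by 0.87 for 100 µM against 0 µM, 0.22 for 50 µM against 0 µM and 0.66 for 100 µM against 50 µM. An exact two-sided permutation test of 3 against 3 libraries gave p = 0.1 for each of these, the smallest p that this design allows, so none could pass 0.05. Of the mRNA-binding proteins named after Igf2, Igf2bp2 fell by 0.20 on the log2 scale at 100 µM against 0 µM (limma adjusted p 0.0429), and Igf2bp3 differed by -0.13 (limma adjusted p 0.317).

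Igfbp3, the main carrier of IGFs in serum and a secreted product of fat stroma, lies at chr11:4491468-4499305 on the minus strand (MGP_C57BL6NJ_G0018427). Its level was 112, 112 and 108 FPKM at 100 µM, against 148, 153 and 144 FPKM at 0 µM. The groups did not overlap, and the gap between them was wider than the range of either. Means were 111 ± 2.14 FPKM at 100 µM and 149 ± 4.35 FPKM at 0 µM (SD, n = 3 each), a fall of 0.42 ± 0.0471 (SE) on the log2 scale (limma adjusted p 0.000188). At 50 µM the libraries held 121, 109 and 119 FPKM, all below 0 µM, and Igfbp3 fell by 0.35 ± 0.0471 (SE; limma adjusted p 0.0253). That call at 50 µM held under 9 of 17 alternatives, with limma adjusted p between 0.000466 and 0.101. It was lost without 0 µM library 1, 2 or 3 (limma adjusted p 0.101, 0.0977 and 0.0833) and without 50 µM library 2 or 3 (0.0985 and 0.0615). The fits without the filter, with the library number as a block and with only the 2 doses lost it as well.

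Igfbp4, which mostly restrains IGF action and is cleaved by the protease PAPP-A, lies at chr11:104812099-104826250 on the plus strand (MGP_C57BL6NJ_G0019474). Its level was 79.2, 68.8 and 66.6 FPKM at 100 µM, against 99.1, 96.6 and 93.8 FPKM at 0 µM. The highest 100 µM library was below the lowest at 0 µM. Igfbp4 averaged 71.6 ± 6.73 FPKM at 100 µM and 96.5 ± 2.63 FPKM at 0 µM (SD, n = 3 each) and fell by 0.43 ± 0.0638 (SE) on the log2 scale (limma adjusted p 0.000875). The 50 µM libraries held 78.9, 76.0 and 81.5 FPKM, again below all 0 µM libraries. The 50 µM difference of -0.29 ± 0.0638 had a limma adjusted p of 0.0761, which was 0.0350 without 100 µM library 1 and 0.00631 with voom.

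Igfbp6, which binds IGF2 in preference to IGF1, lies at chr15:108176395-108181495 on the plus strand (MGP_C57BL6NJ_G0022815). Its level was 144, 136 and 125 FPKM at 100 µM, against 188, 187 and 188 FPKM at 0 µM. The 0 µM libraries were nearly equal, and every 100 µM library was below them. Means were 135 ± 9.14 FPKM at 100 µM and 188 ± 0.732 FPKM at 0 µM (SD, n = 3 each), and the fall was 0.48 ± 0.0871 (SE) on the log2 scale (limma adjusted p 0.00274). At 50 µM the libraries were spread over 154, 131 and 170 FPKM, all below 0 µM, and the difference of -0.31 ± 0.0871 was not called (limma adjusted p 0.131), but was with voom (0.0211). The falls of Igfbp3, Igfbp4 and Igfbp6 at 100 µM against 0 µM were called under all 17 alternatives.

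Igfbp2, a binding protein made by liver and fat, lies at chr1:76203355-76234032 on the plus strand (MGP_C57BL6NJ_G0016527). Its level was 3.55, 4.32 and 4.20 FPKM at 100 µM, against 4.85, 6.81 and 4.80 FPKM at 0 µM. The groups did not overlap, and 0 µM library 2 was the highest. Means were 4.02 ± 0.412 FPKM at 100 µM and 5.49 ± 1.15 FPKM at 0 µM (SD, n = 3 each), from 96 to 167 reads per library over all doses. It fell by 0.36 ± 0.119 (SE) on the log2 scale (limma adjusted p 0.0441), a call held under 7 of 17 alternatives. Without 0 µM library 2 the difference was -0.22 (limma adjusted p 0.105). The fit without the filter lost the call too. Other losses included those without 100 µM library 1, 2 or 3 (limma adjusted p 0.133, 0.0635 and 0.0729). They also included those without 50 µM library 1, 2 or 3 (0.0605, 0.0528 and 0.0539). At 50 µM the libraries held 5.59, 6.24 and 5.37 FPKM, within the 0 µM range (limma adjusted p 0.869).

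Igfbp5, a binding protein that attaches to extracellular matrix, lies 5437 bases from Igfbp2 on the opposite strand (MGP_C57BL6NJ_G0016528, chr1:76239470-76256429). By dose, its level was 4.26, 3.97 and 4.04 FPKM without alginate (0 µM), 3.21, 2.80 and 2.21 FPKM at 50 µM, and 3.78, 2.85 and 3.49 FPKM at 100 µM. Both alginate doses were below 0 µM without overlap, and 50 µM had the lowest mean. Neither difference was called, at -0.22 ± 0.111 (SE; limma adjusted p 0.156) for 100 µM against 0 µM and -0.45 ± 0.111 (limma adjusted p 0.102) for 50 µM against 0 µM. With voom both were called (limma adjusted p 0.0257 and 0.00938). Reads per library numbered 209 to 379.

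Igfbp7, the most abundant member, is also an extracellular matrix and vessel wall protein (MGP_C57BL6NJ_G0030090, chr5:80711395-80781504, minus strand). By dose, its level was 456, 475 and 443 FPKM without alginate (0 µM), 432, 414 and 488 FPKM at 50 µM, and 432, 405 and 378 FPKM at 100 µM. The 100 µM libraries were below those at 0 µM, and the 50 µM libraries overlapped them. The 100 µM difference of -0.18 ± 0.0715 (SE) had a limma adjusted p of 0.0845. It was called without 50 µM library 3 (limma adjusted p 0.0400) and on the TPM scale, after quantile normalization, without the authors' factor and with voom, with limma adjusted p between 0.00295 and 0.0261. Igfbp7 overlaps Polr2b on the opposite strand, listed at up to 21.9 FPKM, and whether counting used strand is not given in the sources used here.

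In all, 6 of the 9 tested members were called lower at 100 µM against 0 µM, where 15.6% of all tested genes were, and 1 was called higher, where 18.3% were. That is 7 called in either direction, where 33.9% of all tested genes were. Without overlap between the 3 and 3 libraries, 8 were lower and 1 was higher, where 22.9% and 25.0% of all tested genes were. The median difference of the 9 members was -0.36, against 0.01 for all tested genes. At 50 µM against 0 µM, 1 member was called lower, where 0.435% of genes were, and 0 were called higher, where 0.356% were (0.791% in either direction). Lower without overlap were 5 members, Igf2r, Igfbp3, Igfbp4, Igfbp5 and Igfbp6, where 8.58% of genes were, and 0 were higher without overlap, where 12.1% were. The median difference was -0.16 for the members and 0.01 for all tested genes. Both comparisons share the 0 µM libraries, so they are not independent.

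Between the alginate doses, 100 µM against 50 µM, 2 members were called lower, where 12.0% of all tested genes were, and 1 was called higher, where 13.2% were (25.1% in either direction). Igf1 was higher at 100 µM by 0.29 ± 0.0825 (SE; limma adjusted p 0.0306). Igf1r was lower, with a difference of -0.28 ± 0.0765 (limma adjusted p 0.0267), as was Igfbp2, with -0.42 ± 0.119 (limma adjusted p 0.0294). These 3 members did not overlap between the doses, 2 lower, where 19.5% of all tested genes were, and 1 higher, where 20.9% were. Igf1 lost the call without any 1 of the 6 libraries, with limma adjusted p between 0.0606 and 0.0875, and Igfbp2 likewise, between 0.0502 and 0.0951. Igf1r lost it without 50 µM library 1 or 2 (limma adjusted p 0.0502 and 0.0868) and without 100 µM library 1 or 2 (0.0786 and 0.0895). None of these 3 members was called without the filter. Igfbp3, called at both doses against 0 µM, differed between them by -0.07 (95% interval -0.17 to 0.04; limma adjusted p 0.341), and Igfbp5 by 0.23 (95% interval -0.02 to 0.48; limma adjusted p 0.170). Igfbp4 and Igfbp6 were not called, but were without 100 µM library 1 for Igfbp4 (limma adjusted p 0.0137) and without 50 µM library 2 for Igfbp6 (0.0294). On the TPM scale, after quantile normalization and with voom, Igfbp3, Igfbp4, Igfbp6 and Igfbp7 were each called lower at 100 µM against 50 µM.

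**Figure D2:**
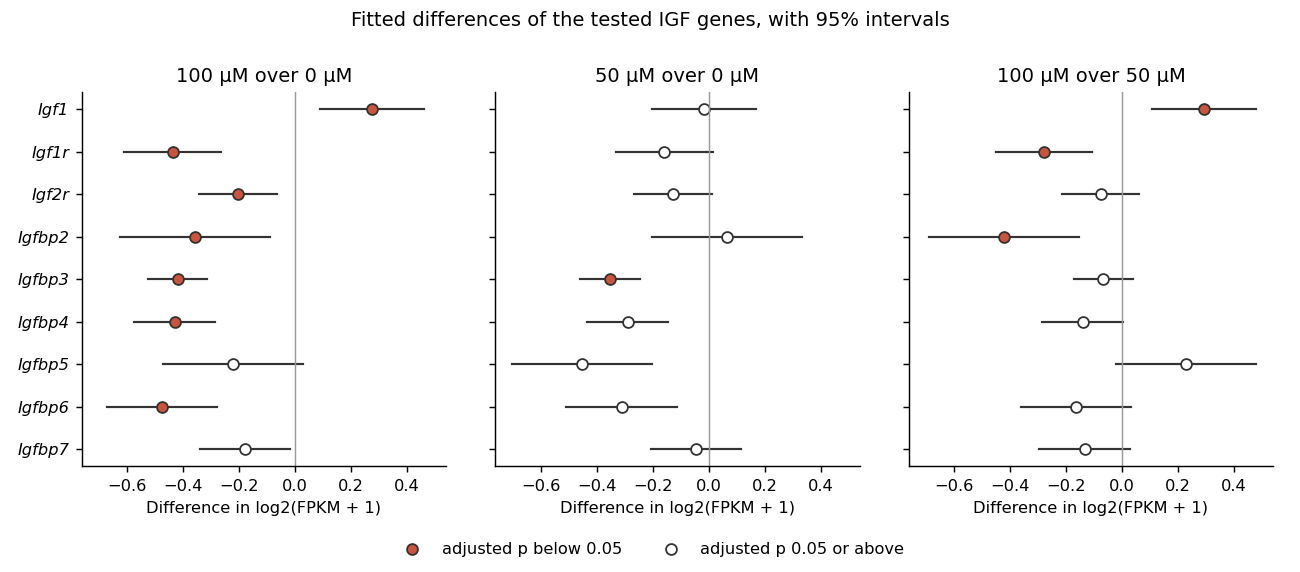
Difference in log2(FPKM + 1) of the 9 tested genes in each pair of doses, with 95% intervals of the limma fit, which are not adjusted for the number of genes. Filled points were called at an adjusted p below 0.05. At 100 µM against 0 µM the filled points are Igf1 at 0.27, to the right of 0, and 6 genes to the left of it, and at 50 µM against 0 µM the filled point is Igfbp3 at -0.35.

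Because the levels are per length, the binding proteins could be added up. The 6 genes together held 729 ± 44.1 FPKM at 100 µM and 900 ± 21.6 FPKM at 0 µM (SD, n = 3 each), with 686 to 774 FPKM in the 100 µM libraries and 879 to 922 FPKM in the 0 µM libraries. At 50 µM the sum was 740 to 867 FPKM. Igfbp7 made up 50.9% ± 0.548 of the sum at 0 µM, 55.6% ± 1.05 at 50 µM and 55.5% ± 0.362 at 100 µM (SD, n = 3 each). Every library with alginate, from 54.4% to 56.4%, was above the 0 µM libraries, from 50.5% to 51.5%. Igfbp6 made up 20.9% at 0 µM, 18.9% at 50 µM and 18.5% at 100 µM. For Igfbp3 the shares were 16.5% at 0 µM, 14.6% at 50 µM and 15.2% at 100 µM, and for Igfbp4 10.7%, 9.87% and 9.80% at these doses. Shares of mRNA do not measure shares of protein, and no test was made on them. Leaving out 1 library moved no share by more than 0.595 percentage points.

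**Figure D3:**
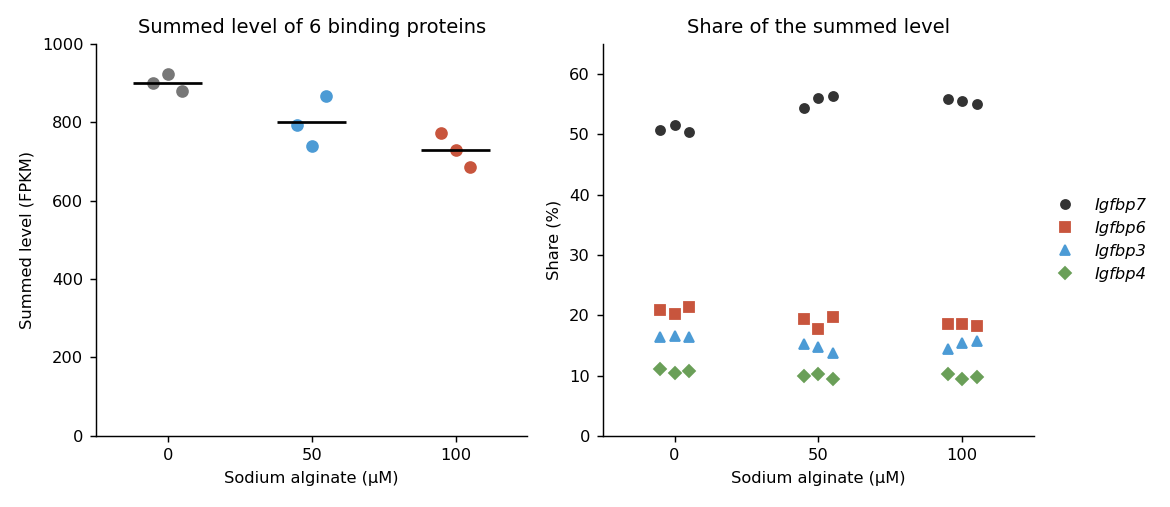
Left, summed level of the 6 binding protein genes (FPKM, axis from 0) in each library at 0, 50 and 100 µM, with black lines for the mean; right, the share of Igfbp7, Igfbp6, Igfbp3 and Igfbp4 in that sum (percent, axis from 0), with a point for each library. The sum lies between 686 and 774 FPKM at 100 µM, below all 0 µM libraries, and the share of Igfbp7 averages 55.5% at 100 µM and 50.9% at 0 µM.

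The promoters shown are those of the 4 genes called lower at 100 µM under every alternative, whose patterns over the doses were not all alike. They are the 250 bases before the RefSeq start, on the gene's strand of GRCm38.p6, a different assembly from that of the coordinates above; all 10 members matched by symbol. Capitals mark TATA-like matches (TATANA, read on both strands, overlapping matches joined), which 22.6% of 32851 promoters of this length hold. The windows are chr7:67952007-67952256 (plus) for Igf1r, chr11:7213924-7214173 (minus) for Igfbp3, chr11:99040994-99041243 (plus) for Igfbp4 and chr15:102143936-102144185 (plus) for Igfbp6.
Igf1r: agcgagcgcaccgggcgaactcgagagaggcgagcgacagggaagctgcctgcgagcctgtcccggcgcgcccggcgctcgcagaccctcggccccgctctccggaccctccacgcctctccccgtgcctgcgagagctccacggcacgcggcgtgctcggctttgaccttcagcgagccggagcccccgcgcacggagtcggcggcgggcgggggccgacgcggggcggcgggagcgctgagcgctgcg
Igfbp3: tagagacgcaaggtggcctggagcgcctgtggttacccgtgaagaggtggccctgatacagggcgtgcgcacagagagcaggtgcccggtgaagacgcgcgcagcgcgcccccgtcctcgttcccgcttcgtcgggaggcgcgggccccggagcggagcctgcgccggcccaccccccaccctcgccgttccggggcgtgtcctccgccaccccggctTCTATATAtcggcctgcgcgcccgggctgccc
Igfbp4: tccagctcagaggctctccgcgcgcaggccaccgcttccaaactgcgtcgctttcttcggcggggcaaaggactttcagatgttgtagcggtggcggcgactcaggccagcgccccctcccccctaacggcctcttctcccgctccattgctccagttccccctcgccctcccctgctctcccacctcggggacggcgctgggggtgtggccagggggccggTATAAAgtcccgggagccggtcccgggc
Igfbp6: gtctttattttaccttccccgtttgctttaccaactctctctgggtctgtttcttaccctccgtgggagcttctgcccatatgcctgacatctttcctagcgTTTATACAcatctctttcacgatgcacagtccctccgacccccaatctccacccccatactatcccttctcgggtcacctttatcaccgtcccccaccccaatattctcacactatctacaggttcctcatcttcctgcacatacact
Igfbp3 and Igfbp4 have a TATA-like match 30 and 28 bases before the start. In Igfbp6 the nearest is 146 bases before it, and in Igf1r the letters are not in the window. Nor are they in any window of the other members, among them Igf2r and Igfbp2, which were also called lower. Igf1r has 2 GC boxes (GGGCGG, both strands), the nearest 26 bases before the start, a motif in 32.7% of promoters. Igfbp7 has 4, Igf2r has 3, and Igfbp2 and Igf2 have up to 3 and 2 in a window. The windows of Igf1, Igfbp3, Igfbp4, Igfbp5 and Igfbp6 have none. The letters GTAAACA (both strands), of the FOXO type, are in no window of the 10 members and in 3.17% of all promoters. These are matches of letters and say nothing of binding.

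Proteases that cleave binding proteins, with their inhibitors, were mostly lower as well. Of 20 tested genes, 15 were lower and 1 was higher at 100 µM against 0 µM, where 15.6% of all tested genes were lower and 18.3% higher. The median difference was -0.36, against 0.01 for all tested genes. Mmp3, stromelysin, which cleaves IGFBP3, averaged 39.6 ± 3.86 FPKM at 100 µM and 89.2 ± 2.05 FPKM at 0 µM (SD, n = 3 each) and fell by 1.15 ± 0.0810 (SE; limma adjusted p 2.05e-05). Adam9 and the plasminogen activators Plau and Plat fell by 0.48, 0.65 and 0.53 on the log2 scale (limma adjusted p 2.92e-05, 4.37e-05 and 9.29e-05). Ctsd, the lysosomal protease cathepsin D, rose by 0.30 ± 0.0405 (limma adjusted p 0.000542). At 50 µM against 0 µM, 3 were lower, where 0.435% of all tested genes were. These were Adamts1, Mmp2 and Mmp14, by 0.39, 0.38 and 0.25 on the log2 scale (limma adjusted p 0.0253, 0.0279 and 0.0405). Mmp14 lost its call on the TPM scale (limma adjusted p 0.0590).

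The gene for PAPP-A, Pappa, and those of its inhibitors, the stanniocalcins, were named for that role after their values were seen. Pappa averaged 3.01 ± 0.274 FPKM at 100 µM and 5.17 ± 0.493 FPKM at 0 µM (SD, n = 3 each) and fell by 0.62 ± 0.0985 (SE; limma adjusted p 0.00128). Stc2 averaged 1.53 ± 0.114 FPKM at 100 µM and 2.07 ± 0.0707 FPKM at 0 µM; it fell by 0.28 on the log2 scale (limma adjusted p 0.0173). Stc1, at 1.43 ± 0.356 FPKM in 100 µM libraries and 2.01 ± 0.482 FPKM in 0 µM libraries, was not called (limma adjusted p 0.131). The substrate Igfbp4, its protease and 1 of the inhibitors were thus each lower at 100 µM.

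Among relatives with an IGFBP domain, including the CCN matrix proteins, 7 of 11 tested genes were lower and 0 higher at 100 µM against 0 µM. In that comparison 15.6% of all tested genes were lower and 18.3% higher. The median difference was -0.48, against 0.01 for all tested genes. Wisp2 averaged 69.1 ± 2.84 FPKM at 100 µM and 121 ± 5.36 FPKM at 0 µM (SD, n = 3 each) and fell by 0.80 ± 0.0496 (SE; limma adjusted p 1.55e-05). Ctgf, a matrix-associated growth regulator, averaged 40.1 ± 0.982 FPKM at 100 µM and 75.7 ± 8.96 FPKM at 0 µM; it fell by 0.89 (limma adjusted p 0.00025). Cyr61 and Crim1 fell by 0.58 and 0.48 on the log2 scale. At 50 µM against 0 µM none of the 11 was called, where 0.791% of all tested genes were. Htra1 and Htra3 are in this list and also in the protease list above.

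Downstream of the receptor, 13 of 49 tested signalling genes were higher and 5 lower at 100 µM against 0 µM, with a median difference of 0.08, against 0.01 for all tested genes. The 18 called genes were 36.7% of the list, near the 33.9% of all tested genes called in either direction, so the count does not set the list apart. Its split moved with the scaling, to 8 higher and 8 lower on the TPM scale, 11 and 9 without the authors' factor, 13 and 8 after quantile normalization, and 13 and 10 with voom. Akt2, the AKT kinase of insulin-driven glucose uptake, averaged 35.4 ± 1.21 FPKM at 100 µM and 23.3 ± 2.20 FPKM at 0 µM (SD, n = 3 each) and rose by 0.59 ± 0.0639 (SE; limma adjusted p 0.000161). Pik3r1, Eif4ebp1 and Mtor, for a PI3 kinase subunit, a translation repressor and the growth kinase, rose by 0.56, 0.49 and 0.46 on the log2 scale. Among the lower genes were the adaptors Grb10 and Grb14, which restrain insulin and IGF1 receptors, with Nras and Foxo3. At 50 µM against 0 µM none of the 49 was called, where 0.791% of all tested genes were.

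Genes around the mannose-6-phosphate route, which IGF2R serves, were called about as often as other genes. The list also holds receptors that are not of that route, among them Sort1 and Sorl1. Of 15 tested, 5 were higher and 0 lower at 100 µM against 0 µM, with 1 lower without the authors' factor or with voom. That is 33.3% of the list, where 33.9% of all tested genes were called in either direction and 18.3% were higher. Sort1, the sorting receptor sortilin, averaged 68.4 ± 1.51 FPKM at 100 µM and 47.8 ± 0.315 FPKM at 0 µM (SD, n = 3 each) and rose by 0.51 ± 0.0444 (SE; limma adjusted p 5.08e-05). Sorl1, Gnptab, Ap1b1 and Vps35 rose by 0.73, 0.36, 0.25 and 0.17, and Vps35 lost its call on the TPM scale, after quantile normalization and with voom. The smaller mannose-6-phosphate receptor, M6pr, differed by -0.05 (limma adjusted p 0.515). Of 11 tested imprinted genes, Mest, a marker of fat expansion, rose by 0.35 (limma adjusted p 0.000671), and Grb10, Meg3, Ndn, Dcn and Sgce were lower, where 18.3% of all tested genes were higher and 15.6% lower.

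**Figure D4:**
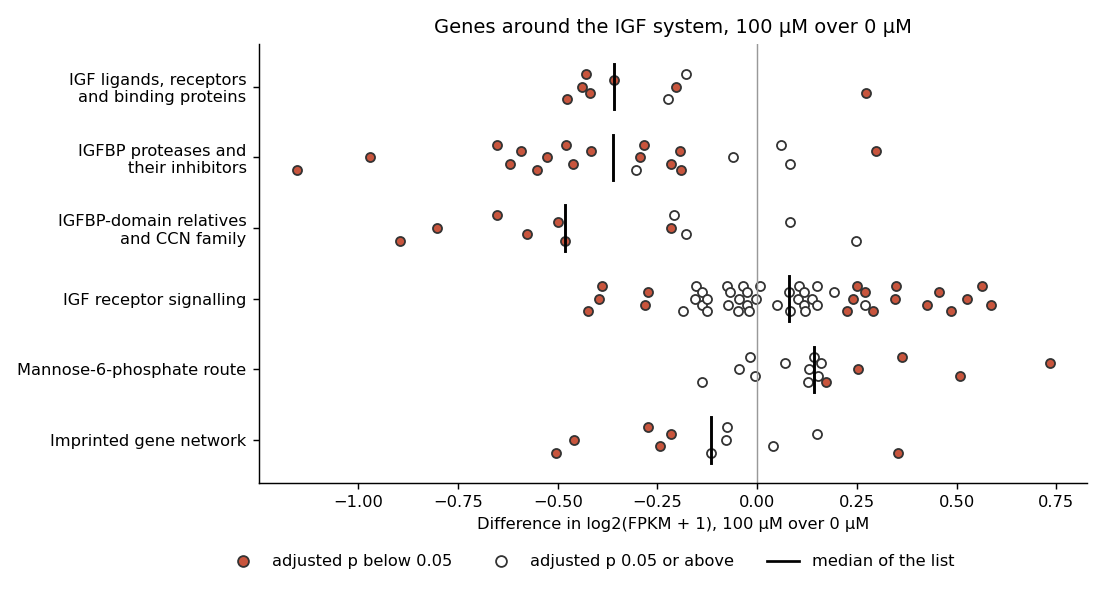
Difference in log2(FPKM + 1), 100 µM over 0 µM, of each tested gene in the members and 5 gene lists around them. Each point is a gene, filled at a limma adjusted p below 0.05, points are spread vertically for legibility, and black lines are list medians. In the protease list 15 of 20 points are filled to the left of 0 and 1 to the right, and in the mannose-6-phosphate list 5 of 15 are filled, all to the right.

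Markers of the cells in the dish also differed between the doses, and their part in the differences of the members was not tested. In bulk RNA, fewer cells of a type and less RNA per cell cannot be told apart. The summed level of 18 mature adipocyte markers was 9019 to 9341 FPKM at 0 µM, 9906 to 10358 FPKM at 50 µM and 13585 to 14296 FPKM at 100 µM. All 18 were called higher at 100 µM against 0 µM, with 17 after quantile normalization. Over all tested genes, 18.3% were called higher in that comparison and 15.6% lower, shares that stand beside each count of markers here. The sum of 20 progenitor and stromal markers was 1473 to 1542 FPKM at 0 µM, 1308 to 1423 FPKM at 50 µM and 950.0 to 1010 FPKM at 100 µM. Of the 18 tested, 12 were lower at 100 µM. The sum of 14 macrophage markers was 177 to 185 FPKM in 100 µM libraries and 225 to 251 FPKM in 0 µM libraries, with 7 of 9 tested lower. For 11 endothelial markers it was 145 to 148 FPKM at 100 µM and 169 to 185 FPKM at 0 µM, with 8 of 10 tested lower. Smooth muscle and pericyte markers, 11 in all, summed to 213 to 232 FPKM in 100 µM libraries and 303 to 345 FPKM in 0 µM libraries. Their genes went both ways, since Acta2 and Tagln fell by 0.63 and 0.54 on the log2 scale, Cspg4 and Mcam were called higher by 0.37 and 0.21, and the median of the 9 tested was -0.02. On each other scaling 1 of this list was higher and 2 or 3 lower. The 8 mesothelial markers summed to 4.41 to 5.18 FPKM in 100 µM libraries and 7.17 to 9.80 FPKM in 0 µM libraries, with both tested genes lower. At 50 µM the macrophage (242 to 246 FPKM), endothelial (166 to 178 FPKM) and smooth muscle (305 to 357 FPKM) sums overlapped those at 0 µM. No marker was at 0 in every library, but the leukocyte marker Ptprc reached at most 0.459 FPKM, Itgam 0.0133, Msln 0.158 and Vwf 0.218.

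Genes whose pattern over the 9 libraries was most like a member's were found as the smallest root mean square difference of centred log2(FPKM + 1) values, among protein-coding tested genes. For Igfbp3 these were Tgfbr2, Lbp and Gas6, at 0.0441, 0.0454 and 0.0510. For Igfbp4 they were the fibrillar collagen gene Col5a2, the cadherin Cdh11 and Serpina3n, at 0.0489 to 0.0528. Igf1r lay closest to Fat1, Myh9 and St3gal5 (0.0440 to 0.0539), and Igfbp6 to Emb, Adm and Ctsk (0.0487 to 0.0718). Among the closest to Igf1 were Eif3j1 and Tmed5, at 0.0442 and 0.0532. For Igf2r the closest were a gene without a symbol, Rev3l and Atp2b1 (0.0246 to 0.0317), and for Igfbp2 Sfxn3, Kif18b and Syk (0.0877 to 0.0919). The libraries share dose and depth, so these distances are a description.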

How the data were processed

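RNA was made into libraries with a SMARTER mRNA-Seq kit and read paired-end, per the labels. The authors deposited 1 table of FPKM values for 41761 genes, per the file headers. Builds GRCm38 and mm10 appear in the submitters' processing notes, but the gene identifiers belong to the C57BL/6NJ strain assembly, and coordinates are the table's own. How reads were aligned and counted is not given in the sources used here. FPKM times gene length gave whole reads, within 0.01 read, for 100% of values. The scaling total over reads was 1.01 to 1.03 at 0 and 50 µM and 0.969 to 0.976 at 100 µM, so the deposited values carry a factor per library. Values were analysed with limma 3.58.1 in R 4.3.3 as log2(FPKM + 1), with 1 mean per dose over all 9 libraries, a variance trend, and two-sided comparisons adjusted over 12635 genes. Groups followed the treatment labels. The members, the gene lists and the alternatives were chosen with earlier results of these data known. Named were all members, up to 4 genes of each list with the smallest p at 100 µM against 0 µM, every called gene where 5 or fewer were called, and the 3 genes most like each called member, except some genes not reported here. Alternatives, 17 in all, were a pseudocount of 0.1, no filter, 3 other scalings, voom on the rebuilt reads, a replicate block, a fit of the 2 doses compared, and leaving out each library. The procedure was tested on simulated data, where the planted changes were larger than those of the members. Counting noise limits the low genes, and intervals from the fit cover the spread between libraries only.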

Additional observations from a re-analysis of the deposited data

How the results depend on the processing

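The 4 falls of Igf1r, Igfbp3, Igfbp4 and Igfbp6 at 100 µM against 0 µM were called under all 17 alternatives, and no member's called difference changed sign under any of them. The count of members lower in that comparison, 6 as reported, ran from 4 without the filter to 8 with voom, and from 4 to 6 without 1 library. The member called higher at 100 µM against 0 µM, Igf1, gave a count of 0 without the filter, on the TPM scale, without the authors' factor and with only the 2 doses fitted, and 0 to 1 without 1 library. At 100 µM against 50 µM that count was 0 without the filter, on the TPM scale and without the authors' factor, and 0 to 1 without 1 library. Members lower at 100 µM against 50 µM, 2 as reported, numbered 0 without the filter, 6 on the TPM scale, after quantile normalization and with voom, 1 with the replicate block and with only the 2 doses fitted, and 0 to 2 without 1 library. Members lower at 50 µM against 0 µM, 1 as reported, numbered 0 without the filter, with the replicate block and with only the 2 doses fitted, 4 with voom, and 0 to 2 without 1 library.

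Over all genes, 100 were called at 50 µM against 0 µM. The count was 12 without the filter, 363 with voom, 0 with the replicate block (1603 at an unadjusted p below 0.05) and 0 with only the 2 doses fitted (1837 unadjusted). Without 1 library it ran from 0 to 112: it was 0 without 0 µM library 1 or 2 or 50 µM library 2 (1493, 1547 and 1636 unadjusted), 1 without 0 µM library 3, 13 without 50 µM library 3, 42 without 50 µM library 1 and 53 without 100 µM library 2. Of the genes called at 100 µM against 0 µM, 2314 were higher and 1965 lower as reported, 1630 and 2633 on the TPM scale, 1731 and 2658 without the authors' factor, 1836 and 3010 with voom, and 2103 and 2117 after quantile normalization. At 100 µM against 50 µM the split was 1663 and 1510 as reported, 1060 and 2031 on the TPM scale, 1102 and 2180 without the authors' factor, 1232 and 2508 with voom, and 1468 and 1583 after quantile normalization. At 50 µM against 0 µM it was 45 and 55 as reported, 33 and 74 after quantile normalization, and 180 and 183 with voom. The cause of these moves was not tested. Replicate numbers did not pair the libraries, since the deviations of same-numbered libraries correlated at -0.0941 to 0.0412 and 1 of 9 libraries correlated best with its own number. Depth limits Igf2, at 13 to 51 reads per library, Igfbp2 and Igfbp5.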
